A study of Arabidopsis thaliana with 7 samples.

Results

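The chloroplast genome of Arabidopsis is represented in these root RNA-seq data by 133 gene identifiers (ids), all that begin with ATCG, out of 32833 ids counted in each library. The prefix alone defines the members, and the set was taken up with earlier results of these data known. RNA came from roots of the wild type Col-0 (3 libraries, replicates 1, 3 and 4) and of the quadruple mutant roxy6,7,8,9, called cepd (4 libraries, replicates 1 to 4), a line obtained in the Col-0 background by CRISPR/Cas9 genome editing. Seedlings of both genotypes were kept in continuous light with 0.5% sucrose in the medium. Nitrogen was supplied for the first 7 d as KNO3 (2 mM), NH4NO3 (1 mM) and glutamine (1 mM), which is called full nutrition (FN). It was then lowered for 2 d to KNO3 at 0.1 mM and NH4NO3 at 50 µM, with KCl added at 3 mM (low N, LN). Each library held roots pooled from 50 seedlings on 5 plates, from 1 of 4 independent experiments, and 1 further Col-0 library had been set aside by the authors because of leaf material. ROXY6 to ROXY9 (also called CEPDs) are shoot-to-root mobile glutaredoxin-like proteins that act in the response to nitrogen starvation.

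Plastids are present in root cells as non-photosynthetic leucoplasts and amyloplasts, which keep the whole chloroplast genome and express it at low levels. The genome encodes core subunits of both photosystems, of the cytochrome b6f complex and of the ATP synthase, the large subunit of Rubisco, and parts of the machinery for plastid transcription and translation. It is read by a plastid-encoded RNA polymerase, which needs nuclear-encoded sigma factors, and by a phage-type nuclear-encoded polymerase. The library kit selects RNA with poly(A) tails, and in plastids such tails are added to RNA that is being degraded. The counts therefore describe the captured fraction of chloroplast RNA and not its total amount.

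Names were available for 20 of the 133 ids, and 19 of them matched a gene of the RefSeq chloroplast annotation (assembly TAIR10.1, 154478 bases, 129 genes). Of these names, 7 came from a list of genes that had been selected as higher in cepd in these libraries, so the named genes are not a neutral sample of the genome. The other 113 ids are given by their number. PSBA (ATCG00020, bases 383 to 1444 on the minus strand) showed the largest fold change of all tested members. A stretch of its upstream sequence is shown because its letters resemble the bacterial-type promoters read by the plastid-encoded polymerase. Capitals mark the blocks TTGACA and TANNNT, searched with 15 to 19 bases between them in the 250 bases before each annotated gene start, on the strand of the gene.
psbA, bases 1530 to 1559, minus strand: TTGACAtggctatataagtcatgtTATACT
The stretch begins 115 bases before the annotated start, with 18 bases between the blocks. The same letters were found before 7 of the 129 genes (5.43%), namely psbA, 4 tRNA genes and both copies of ycf1, and before 3 genes (2.33%) on the opposite strand. A match describes letters and is not a mapped promoter. The longest run of A in the coding sequence, in capitals below, is shown for the named members with the largest (PSBA, PSAB) and the smallest (ATPI, S11) fold changes among those tested and for ACCD, which has the longest run, because the library kit captures RNA through runs of A.
PSBA, bases 1356 to 1383, minus strand: taactagcactgAAAAccgtctttacat
PSAB, bases 39059 to 39086, minus strand: tttcgtggttcAAAAAtgctgaatctcg
ATPI, bases 14286 to 14313, minus strand: cggggcttagcAAAAAAggattagggta
S11, bases 78960 to 78987, minus strand: tagaccccctAAAAAAAgacgtgtatag
ACCD, bases 57365 to 57392, plus strand: ttttgatAAAAAAAAAAAAAtttttgag
The runs were 4 bases long in PSBA, 5 in PSAB, 6 in ATPI, 7 in S11 and 13 in ACCD.

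The libraries held 30758339 to 46611731 counts. Levels of ROXY6 were 5.17 to 5.87 counts per 1000000 counts of the library (CPM) in Col-0 and 2.82 to 4.51 CPM in cepd, those of ROXY7 and ROXY8 overlapped between the genotypes, and ROXY9 was at 0.0268 CPM or lower in every library. An edited gene can still be transcribed, so these levels do not check the genotype. Among 18 shoot markers (meristem, stomatal, trichome and epidermal genes) none of the 8 tested passed at an adjusted p under 0.05 in either direction (edgeR). Over all genes tested 9.64% were higher and 8.30% lower, so 0 calls among 8 genes carries little information. The other 10 were too low to be tested, and MUTE, EPF1 and GL1 (listed as MYB0) were at 0 in all libraries. The summed level of all 18 was 133.3 to 163.0 CPM in Col-0 and 141.9 to 180.7 CPM in cepd, most of it from PDF1, an epidermal gene (means 116.9 and 122.9 CPM). The 17 markers without PDF1 summed to 30.0 to 32.6 CPM in Col-0 and 34.8 to 39.2 CPM in cepd, which did not overlap, a sum added after the data were seen. The 8 root markers summed to 455.1 to 487.9 CPM in Col-0 and 407.1 to 471.7 CPM in cepd, with EXPA7 (-0.76) and SHV2 (-0.61), both active in root hairs, lower in cepd on the log2 scale at an adjusted p under 0.05 (edgeR).

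Captured chloroplast-encoded RNA was a small part of the counts and was higher in all 4 cepd libraries than in any Col-0 library. Summed over the 133 ids, it amounted to 12.8, 12.1 and 13.7 CPM in Col-0 replicates 1, 3 and 4. In cepd replicates 1 to 4 the sums were 64.5, 61.8, 29.2 and 24.0 CPM. The Col-0 libraries lay close together, whereas cepd replicates 1 and 2 stood at more than the level of replicates 3 and 4 combined. The Col-0 library set aside for leaf material is not among them, while all 4 cepd libraries were kept. The spread of Col-0 and the ratios below therefore describe a set trimmed in Col-0 only. The means were 12.9 ± 0.765 CPM (SD, n = 3) and 44.9 ± 21.2 CPM (SD, n = 4), a ratio of 3.49, which became 2.07 without cepd replicates 1 and 2 (an alternative added after the data were seen). Within the replicate numbers present in both genotypes, the ratio was 5.05 for replicate 1, 2.41 for replicate 3 and 1.76 for replicate 4. The 95% exact binomial intervals of the sums, which cover counting error only, reached from 11.03 to 14.9 CPM in Col-0 and from 22.5 to 67.2 CPM in cepd, so they did not overlap. As these are bulk samples of captured RNA, several readings cannot be told apart. They are more plastid RNA per cell, a larger captured fraction of it, and a larger share of cells rich in plastid RNA.

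**Figure D1:**
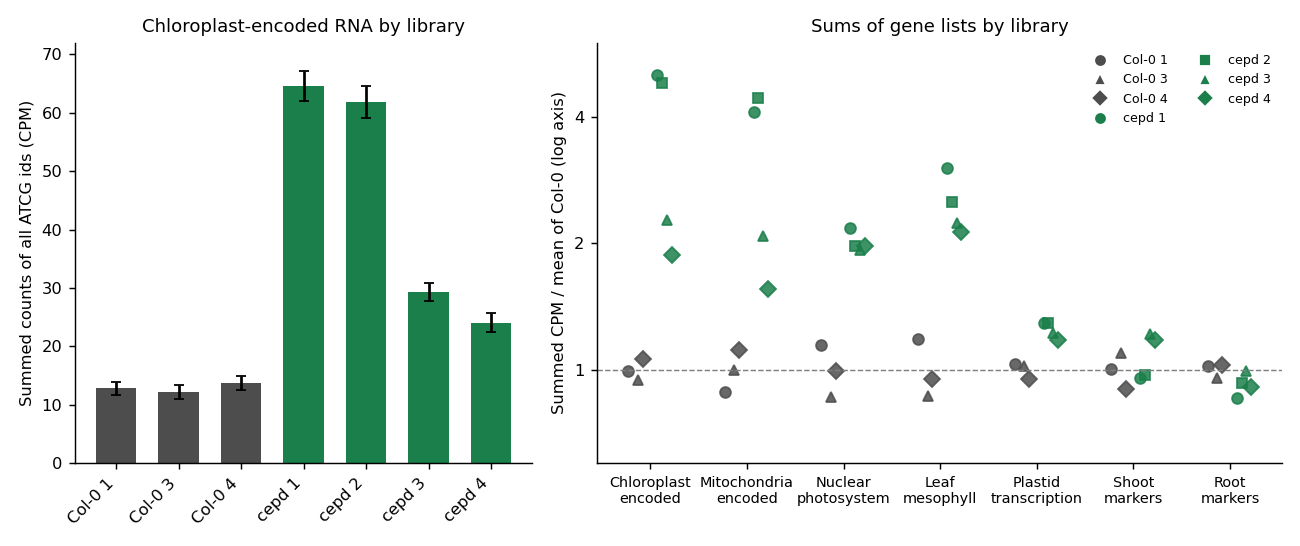
Left, summed CPM of all ATCG ids in each library (bars) with 95% exact binomial intervals. Right, summed CPM of chloroplast-encoded ids, mitochondria-encoded ids and 5 nuclear gene lists in each library, divided by the mean of Col-0 (log axis, 1 symbol per replicate number). Chloroplast and mitochondrial RNA were highest in cepd 1 and 2, while the nuclear photosystem genes lay close together in the 4 cepd libraries.

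Mitochondria-encoded RNA (152 ids beginning with ATMG) moved with it. It amounted to 299.7, 339.5 and 378.7 CPM in Col-0 replicates 1, 3 and 4 and to 1392, 1502, 706.5 and 528.8 CPM in cepd replicates 1 to 4. The ratio of means was 3.04, and 1.82 without cepd replicates 1 and 2. Of 20 mitochondrial ids tested, 8 were higher and 0 lower in cepd at an adjusted p under 0.05 (edgeR), against 9.64% and 8.30% of all genes tested. The part of this shared shift of both organelles in the chloroplast result was not tested.

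The counts were spread unevenly over the genome. Of the 133 ids, 96 had a count in at least 1 library and 37 were at 0 in all 7, where 3 counts would correspond to 0.0644 to 0.0975 CPM. Of the empty ids, 34 fell into a pair of unbroken stretches in the order of the ids. The stretch ATCG00830 to ATCG01000 (19 ids) held 2 counts over all libraries, and the stretch ATCG01140 to ATCG01310 (18 ids) held 1 count. The chloroplast genome contains an inverted repeat whose genes are present in identical copies, and ATCG01310, the ribosomal protein L2 gene, illustrates this: RefSeq lists 2 copies of 1507 bases with 0 differing bases. Reads from such copies have more than 1 origin, and the level of these ids is therefore uncertain. Of the ids with counts, 25 had fewer than 10 over all libraries and 22 had at least 100.

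**Figure D2:**
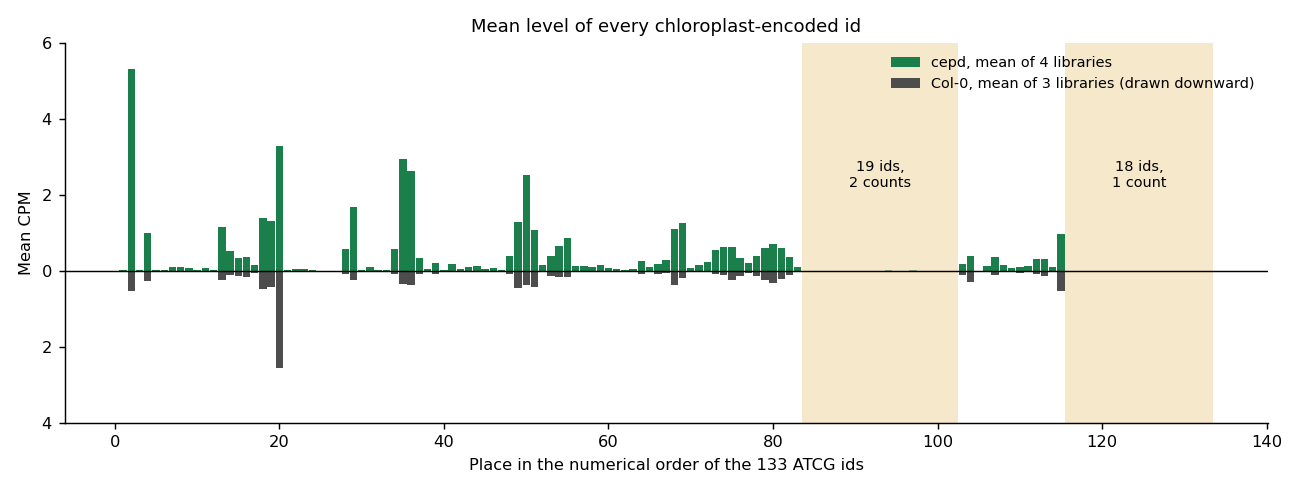
Mean CPM of each of the 133 ids in numerical order, for cepd (upward, mean of 4 libraries) and Col-0 (downward, mean of 3 libraries). Shaded are the stretches of 19 and 18 ids that held 2 counts and 1 count in all, and the tallest bars are PSBA in cepd and ATCG00190 in Col-0.

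Of the 96 ids with a count, 93 had the higher mean CPM in cepd. The remaining 3 (ATCG00090, ATCG01030 and ATCG01190) had 4, 1 and 1 counts over all libraries. For 36 ids every cepd library lay above every Col-0 library and for 0 ids below, where 14.4% of all genes with a count showed the same upward separation. Only 31 ids passed the filter on low counts (edgeR filterByExpr), and these held 82.9% of the chloroplast counts in Col-0 and 82.0% in cepd. Genes that are low in Col-0 can pass this filter through cepd alone, so the counts over these 31 describe them and not the genome. At an adjusted p under 0.05 (edgeR quasi-likelihood test, adjusted over 20600 genes), 18 of the 31 were higher in cepd, against 9.64% of all genes tested. All 18 had a log2 fold change (log2FC) over 1, which 1.93% of all genes tested combined with a call. Every cepd library lay above every Col-0 library in 21 of the 31, all 18 among them, against 17.7% of all genes tested. The 18 were called on these same values, so their separation adds nothing to the calls. No member was lower, against 8.30% of all genes: the count was 0 at an unadjusted p under 0.05 as well, and 0 with DESeq2 and with limma-voom. Higher in cepd were 21 members with DESeq2, against 10.4% of all genes, 13 with limma-voom (9.46%) and 19 with the replicate block (13.9%).

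The numbers of members called and of members that passed the filter both depended on single libraries. Called were 17 of 40 tested without Col-0 replicate 1 (background 12.5% of all genes), 6 of 40 without Col-0 replicate 3 (5.62%) and 8 of 40 without Col-0 replicate 4 (7.21%). Without cepd replicate 1, 10 of 22 were called (7.09%), and without cepd replicate 2, 9 of 22 (6.55%). Without cepd replicate 3, 14 of 25 were called (6.95%), and without cepd replicate 4, 22 of 29 (8.06%). Without cepd replicates 1 and 2 together, 24 members were tested and 5 were called, namely PSBA, PSAB, PSAA, RBCL and PSBB, against 3.77% of all genes. PSBA, MATK, CEMA and ATCG00520 were called with all libraries and with any single library left out. The log2FC of all 31 was above 0 in every fit that included them.

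Genes for the reaction centres of the photosystems formed the top of the list. PSBA encodes the D1 protein of photosystem II, which binds the primary electron acceptors and is replaced continuously in light. Its counts were 20, 12 and 29 in Col-0 replicates 1, 3 and 4 and 293, 231, 131 and 112 in cepd replicates 1 to 4. All cepd libraries were thus far above all Col-0 libraries, with replicates 1 and 2 the highest. In CPM the means were 0.534 ± 0.216 (SD, n = 3) and 5.30 ± 2.80 (SD, n = 4), and the log2FC was 3.25 (standard error 0.52, 95% interval 2.06 to 4.44, adjusted p = 0.00379 from edgeR). With cepd replicates 3 and 4 alone it was 2.39 (adjusted p = 0.00412, edgeR).

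PSAA (bases 39605 to 41857, minus strand) and PSAB (37375 to 39579, minus strand) encode the pair of large proteins that carry the P700 chlorophylls of photosystem I and lie next to each other on the genome. PSAB had 10, 13 and 18 counts in Col-0 and 188, 128, 66 and 41 in cepd. PSAA had 19, 13 and 11 counts in Col-0 and 150, 123, 68 and 38 in cepd. In both genes cepd replicate 4 was the lowest mutant library and still exceeded each Col-0 library. The log2FC was 2.96 for PSAB (standard error 0.66, adjusted p = 0.0161) and 2.73 for PSAA (standard error 0.59, adjusted p = 0.0136), both from edgeR. The call was lost for PSAB without Col-0 replicate 1 (adjusted p = 0.0521) or Col-0 replicate 3 (0.0512) and for PSAA without Col-0 replicate 4 (0.0554).

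The chlorophyll-binding antenna proteins CP47 and CP43 of photosystem II are encoded by PSBB (72371 to 73897, plus strand) and PSBC (33720 to 35141, plus strand). PSBB had 5, 6 and 12 counts in Col-0 and 57, 64, 39 and 21 in cepd. PSBC had 10, 9 and 8 counts in Col-0 and 107, 72, 22 and 37 in cepd, where replicate 3 and not replicate 4 was the lowest. No cepd library overlapped Col-0 for either gene. The log2FC was 2.55 for PSBB (standard error 0.54, adjusted p = 0.0109) and 2.73 for PSBC (standard error 0.68, adjusted p = 0.0244), both from edgeR. PSBB lost its call without Col-0 replicate 3 (adjusted p = 0.0527), and PSBC lost it without any single Col-0 library or without cepd replicate 2 (0.0502 to 0.0801). ATCG00430 was listed with photosystem II only through a RefSeq note on a similar nuclear gene (photosystem II reaction center protein G). This name matched no gene of the chloroplast annotation, so the identity of the id is uncertain. It had 1 count in each Col-0 library and 6, 4, 4 and 3 counts in cepd, too few to be tested.

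**Figure D3:**
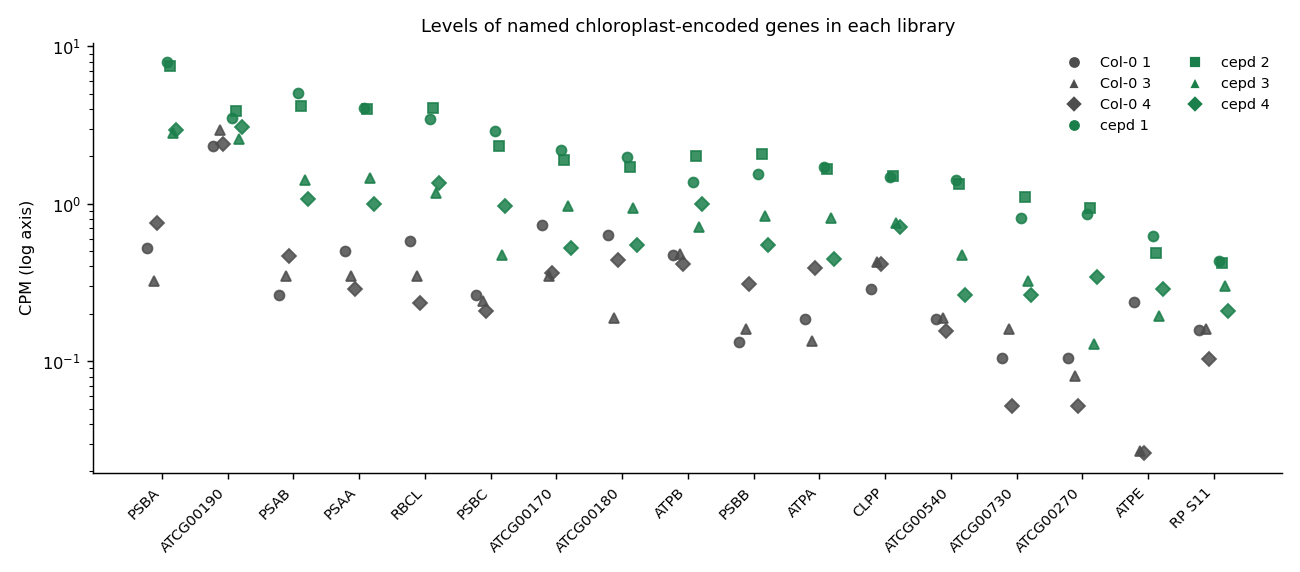
CPM (log axis) of the 17 members selected for description, in each library (grey, Col-0 replicates 1, 3 and 4, green, cepd replicates 1 to 4), ordered by mean CPM in cepd. PSBA, PSAB, PSAA, RBCL, PSBC and PSBB show a wide gap between the genotypes, whereas the points of ATCG00190 overlap.

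RBCL (54958 to 56397, plus strand) encodes the large subunit of Rubisco, the enzyme that fixes CO2. It had 22, 13 and 9 counts in Col-0 and 127, 125, 55 and 52 in cepd, again with replicates 1 and 2 above 3 and 4. The log2FC was 2.63 (standard error 0.55, adjusted p = 0.0119 from edgeR), and the call was lost without Col-0 replicate 4 (0.0512). ACCD (57075 to 58541, plus strand) encodes the plastid subunit of acetyl-CoA carboxylase, which fatty acid synthesis needs in all plastids, green or not. Its counts were 17, 13 and 18 in Col-0 and 62, 38, 38 and 20 in cepd, without overlap but with cepd replicate 4 close to Col-0. Its log2FC of 1.28 (standard error 0.39) missed the threshold (adjusted p = 0.0509, edgeR) and passed it in the fit with the replicate block (adjusted p = 0.0308, edgeR), with DESeq2 (0.0173), without the filter (0.0444, edgeR) and without cepd replicate 4 (0.0156, edgeR).

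Of 6 named ATP synthase genes 4 were tested and 2 were called higher, against 9.64% of all genes tested. ATPA (9938 to 11461, minus strand) and ATPB (52660 to 54156, minus strand) encode the alpha and beta subunits of the catalytic head. ATPA had 7, 5 and 15 counts in Col-0 and 63, 51, 38 and 17 in cepd, and ATPB had 18, 18 and 16 in Col-0 and 51, 62, 33 and 38 in cepd. In ATPA the lowest cepd library barely exceeded the highest Col-0 library, whereas in ATPB the gap was wider and the fold smaller. The log2FC was 2.21 for ATPA (standard error 0.55, adjusted p = 0.0230) and 1.41 for ATPB (standard error 0.36, adjusted p = 0.0248), both from edgeR. Each lost its call in 3 of the 7 fits without 1 library: ATPA without Col-0 replicate 3 or cepd replicate 1 or 2 (adjusted p up to 0.0938), and ATPB without Col-0 replicate 3 or 4 or cepd replicate 1 (up to 0.0835).

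ATPE, the epsilon subunit gene, overlaps the end of ATPB by a few bases (52265 to 52663), so reads in the overlap cannot be assigned. It had 9, 1 and 1 counts in Col-0 and 23, 15, 9 and 11 in cepd, so that Col-0 replicate 1 reached the lowest cepd count. Its log2FC was 1.93 (standard error 0.70, adjusted p = 0.0857), and 3.68 without Col-0 replicate 1 (adjusted p = 0.0111), both from edgeR. With the replicate block the adjusted p was 0.0197 and with DESeq2 0.0483. ATPI, a subunit of the membrane part, had 3, 11 and 5 counts in Col-0 and 19, 15, 8 and 9 in cepd, which overlapped (log2FC 0.98, adjusted p = 0.247, edgeR). ATPF (2, 4 and 7 counts in Col-0, 40, 17, 9 and 8 in cepd) and ATPH (17 counts in all Col-0 libraries, 50 in all cepd libraries) were not tested.

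Genes for splicing, proteolysis, the envelope and translation followed. MATK (2056 to 3570, minus strand) encodes a maturase that takes part in splicing of plastid introns. It had 9, 13 and 10 counts in Col-0 and 49, 32, 48 and 21 in cepd, which gave a log2FC of 1.76 (standard error 0.34, adjusted p = 0.00691, edgeR). CEMA, an envelope membrane protein gene (60741 to 61430, plus strand), had 6, 4 and 9 counts in Col-0 and 30, 17, 36 and 16 in cepd, which gave a log2FC of 1.90 (standard error 0.37, adjusted p = 0.00745, edgeR). In CPM cepd replicate 3 was level with replicate 2 for MATK (1.03 and 1.04) and above it for CEMA (0.772 and 0.553), unlike in the photosystem genes. Both calls were lost when cepd replicates 1 and 2 were left out together (adjusted p = 0.0588 and 0.0526, edgeR).

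CLPP, the gene of the proteolytic subunit of the Clp protease (69910 to 71882, minus strand), had 11, 16 and 16 counts in Col-0 and 55, 46, 35 and 27 in cepd. The genotypes did not overlap, and the log2FC was 1.49 (standard error 0.36, adjusted p = 0.0189, edgeR). The call was lost without Col-0 replicate 3 or 4 or cepd replicate 2 (adjusted p up to 0.0583), and without cepd replicates 1 and 2 together the log2FC was 0.92 (adjusted p = 0.121). Among ribosomal protein genes, L20 had 1, 2 and 5 counts in Col-0 and 11, 11, 15 and 6 in cepd (log2FC 1.93, standard error 0.53, adjusted p = 0.0325, edgeR), and its adjusted p with the replicate block was 0.0602. S11 had 6, 6 and 4 counts in Col-0 and 16, 13, 14 and 8 in cepd (log2FC 1.21, adjusted p = 0.0575, edgeR).

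ATCG00190, which is unnamed in the sources used, had the smallest log2FC of the 10 members with the highest mean CPM. It had 89, 110 and 93 counts in Col-0 and 130, 120, 120 and 118 in cepd. In CPM cepd replicate 3 (2.57) lay below Col-0 replicate 3 (2.95), so the genotypes overlapped. The log2FC was 0.31 (standard error 0.16, 95% interval -0.06 to 0.68, adjusted p = 0.231, edgeR), and none of the 15 alternative fits called it (adjusted p 0.128 to 0.804). The upper end of this interval lay below the lower end for PSBA (2.06). In Col-0 this id alone gave 18.4%, 24.3% and 17.7% of the chloroplast counts in replicates 1, 3 and 4. In cepd its share was 5.46%, 6.32%, 8.80% and 12.9% in replicates 1 to 4, below every Col-0 library. As its own counts were nearly constant in cepd, its share followed the total of the other ids. The ids just before it in number, ATCG00170 and ATCG00180, are also among these 10, missed the threshold and overlapped between the genotypes, with Col-0 replicate 1 above cepd replicate 4. ATCG00170 had 28, 13 and 14 counts in Col-0 and 81, 58, 45 and 20 in cepd (log2FC 1.46, adjusted p = 0.0783, edgeR). ATCG00180 had 24, 7 and 17 counts in Col-0 and 73, 53, 44 and 21 in cepd (log2FC 1.56, adjusted p = 0.0594, edgeR). With the replicate block the adjusted p was 0.00745 for ATCG00170 and 0.0148 for ATCG00180.

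Of the 15 unnamed ids tested, 6 were called, against 9.64% of all genes tested. ATCG00270 had 4, 3 and 2 counts in Col-0 and 32, 29, 6 and 13 in cepd (log2FC 2.70, standard error 0.78, adjusted p = 0.0414, edgeR). ATCG00540 had 7, 7 and 6 counts in Col-0 and 52, 41, 22 and 10 in cepd (log2FC 2.21, standard error 0.64, adjusted p = 0.0406, edgeR). ATCG00730 had 4, 6 and 2 counts in Col-0 and 30, 34, 15 and 10 in cepd (log2FC 2.44, standard error 0.65, adjusted p = 0.0304, edgeR). In all 3 ids the genotypes did not overlap, but cepd replicates 3 and 4 were much nearer to Col-0 than replicates 1 and 2. Each lost its call without Col-0 replicate 3 (adjusted p 0.125, 0.118 and 0.0683) and without Col-0 replicate 4 (0.128, 0.121 and 0.105), and ATCG00270 and ATCG00540 also without Col-0 replicate 1 (0.0547 and 0.0640). Without cepd replicate 1 or 2 none of the 3 passed the filter, so these calls could not be checked there. Their counts were low in Col-0 and also in single cepd libraries. These were replicate 3 for ATCG00270 (6 counts) and replicate 4 for ATCG00540 and ATCG00730 (10 counts each). ATCG00520 differed in that its 4 mutant libraries were even: 4, 5 and 6 counts in Col-0 stood against 16, 10, 17 and 16 in cepd (log2FC 1.50, standard error 0.31, adjusted p = 0.0103, edgeR). The last of the called ids, ATCG00790 (log2FC 1.02, adjusted p = 0.0479) and ATCG00800 (1.44, 0.0463), lost their calls in most alternatives, with adjusted p of 0.0691 and 0.0600 with the replicate block. Like ATCG00190, ATCG01020 showed no call (12, 10 and 13 counts in Col-0, 14, 15, 18 and 10 in cepd, log2FC 0.25, 95% interval -0.39 to 0.90).

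**Figure D4:**
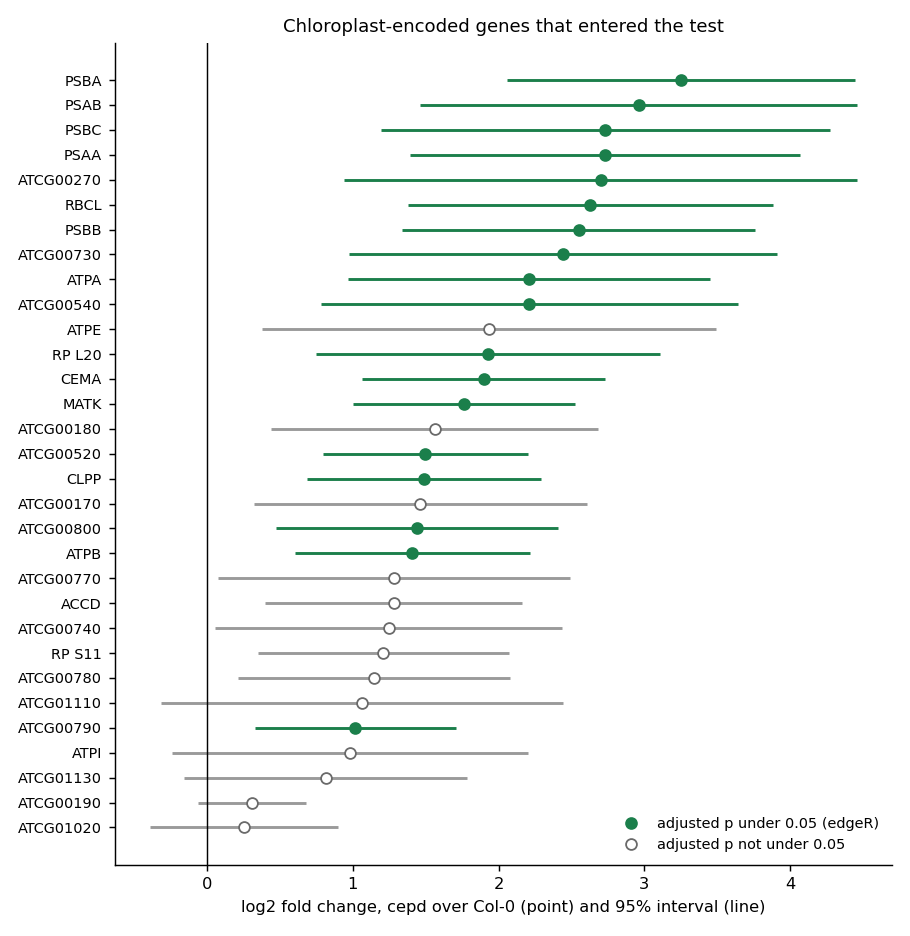
log2FC of cepd over Col-0 (points) with 95% intervals (lines) for the 31 members that entered the edgeR test, ordered by size. Filled points mark the 18 members at an adjusted p under 0.05, with PSBA (3.25) at the top, and ATCG00190 (0.31) and ATCG01020 (0.25) lie at the bottom.

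The 102 ids left untested included 65 with counts, of which 62 had the higher mean in cepd. When all 96 ids with counts were tested without a filter, 23 were called higher, against 7.13% of all genes. These included 5 that had not been tested before, ATCG00330, ATCG00400, ATCG00420, ATCG00700 and ATCG00720. ATCG00330 had 4, 2 and 4 counts in Col-0 and 32, 31, 12 and 7 in cepd. ATCG00720 had 6, 1 and 4 counts in Col-0 and 31, 25, 12 and 9 in cepd. In both, cepd replicates 1 and 2 lay above replicates 3 and 4, and these above Col-0.

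The order of the mutant libraries was shared widely. The highest of all 7 libraries was cepd replicate 1 in 17 of the 31 tested members and cepd replicate 2 in 14. Both exceeded cepd replicates 3 and 4 in 25 members. The lowest mutant library was cepd replicate 4 in 21 members and replicate 3 in 9.

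The 6 genes PSAA, PSAB, PSBA, PSBB, PSBC and RBCL together made up 17.7%, 14.6% and 16.6% of chloroplast counts in Col-0 replicates 1, 3 and 4. They made up 38.7%, 39.1%, 27.95% and 32.9% in cepd replicates 1 to 4. The means were 16.3% ± 1.58 (SD, n = 3) and 34.6% ± 5.30 (SD, n = 4), and without cepd replicates 1 and 2 the ratio of 2.13 between them became 1.86. All 6 belong to the list that had been selected as higher in cepd on these libraries, which also held MATK, so the direction of this shift was given by their choice, and no difference in composition was tested.

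Levels were compared between genes as CPM divided by the coding length in kilobases (RPKM). In Col-0 the order began with CLPP (0.640 ± 0.130 RPKM, SD, n = 3), ATPH (0.608 ± 0.0696) and PSBA (0.503 ± 0.203), whose values overlapped. PSBB was the lowest of the genes with counts (0.132 ± 0.0633 RPKM). In cepd PSBA stood first at 4.99 ± 2.64 RPKM (SD, n = 4), above CLPP (1.88 ± 0.745) and RBCL (1.74 ± 1.01) in each cepd library. PSAB moved from place 16 of the 19 genes with a known length in Col-0 to place 5 in cepd, and RBCL from place 7 to place 3. The order among the genes behind PSBA in cepd rests on spreads that overlap. By coding sequence, the 6 photosystem and RBCL genes had longest runs of A of 4 to 6 bases and log2FC of 2.55 to 3.25. ACCD, ATPB and MATK had runs of 9 to 13 bases and log2FC of 1.28 to 1.76. Run length gave no order among the other 7 tested genes. ATPE and CLPP, with runs of 4 bases, had log2FC of 1.93 and 1.49, and ATPA, with 5, had 2.21. CEMA and ATPI, with runs of 6, had 1.90 and 0.98, and L20 and S11, with runs of 7, had 1.93 and 1.21.

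Nuclear genes for the partners of these proteins were also higher in cepd. Of 20 genes for photosystem subunits, all 20 were tested and higher at an adjusted p under 0.05 (edgeR), with a median log2FC of 1.01 against 0.01 for all genes tested. A log2FC over 1 with a call was seen in 11 of them, and over all genes tested 9.64% were called higher and 1.93% with a log2FC over 1. PSBW, a small photosystem II subunit, rose by a log2FC of 1.3, PSBP-1 and PSBR of the oxygen-evolving side of photosystem II by 1.02 and 0.92, and PSAK of photosystem I by 1.07. Unlike the chloroplast genes, their sum was even across the mutant libraries, at 350.1, 263.6 and 304.6 CPM in Col-0 and 664.1, 604.1, 588.7 and 604.4 CPM in cepd. Of 13 other partner genes 10 were tested and 6 were higher. Among these were RBCS1A, a small subunit of Rubisco (1.39), PETC, the Rieske protein of the cytochrome b6f complex (1.28), and ATPC1, the gamma subunit of the ATP synthase (1.18). The remaining small subunit genes RBCS1B (0.50), RBCS2B (0.26) and RBCS3B (0.44) were tested and not called. Of 8 leaf mesophyll markers, which include RBCS1A again and light-harvesting genes, 5 were higher. CAB2 (0.22), CA1 (0.28) and GPRI1 (-0.06) were tested and not called. The sum of all 8 was 203.0, 149.0 and 163.2 CPM in Col-0 and 519.3, 431.6, 384.2 and 365.9 CPM in cepd. The largest means in cepd were those of CAB1 (174.2 CPM), RBCS1A (108.6) and RCA (79.26). The part of these nuclear genes in the chloroplast result, and that of the shoot markers given above, was not tested.

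Genes that transcribe the chloroplast genome had smaller log2FC. Of 20 nuclear genes for plastid polymerases, sigma factors and polymerase-associated proteins, 19 were tested, 7 were higher and 0 lower at an adjusted p under 0.05 (edgeR), against 9.64% and 8.30% of all genes tested, and none had a log2FC over 1. The 4 with the smallest adjusted p were PTAC6 (log2FC 0.55) and PTAC3 (0.52), both components of the plastid transcription complex, and the sigma factors SIGF (0.72) and SIGC (0.40). Of 8 genes for plastid RNA turnover and RNA binding, 5 were higher and 0 had a log2FC over 1, including the RNA-binding proteins RBP31 (0.31), CP29 (0.32) and AT2G37220 (0.34), and RIF10, the chloroplast polynucleotide phosphorylase (0.50), which degrades and polyadenylates RNA. The median log2FC of these lists was 0.30 and 0.33, against 1.01 for the nuclear photosystem genes.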

How the data were processed

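RNA-seq of 7 root libraries was analysed. The deposited files held raw counts per gene, made by the authors with CASAVA 1.8.2, STAR 2.5.2b-2 and HTSeq 0.9.1 on TAIR10, with DESeq2 2.11.40.6 for their tests. Libraries were prepared with the TruSeq RNA Library Prep Kit v2, which does not mark strand, so overlapping and antisense genes cannot be separated. Counting options and the gene annotation are not given in the sources used here. One file had no header line and was joined by id.

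Counts of all genes were tested in R 4.3.3 with edgeR 4.0.16 (robust quasi-likelihood test, genotype only) after filterByExpr (minimum count 10, minimum total 15) and TMM scaling (factors 0.986 to 1.02), with Benjamini-Hochberg adjustment over 20600 genes. Members were called at an adjusted p under 0.05. The biological coefficient of variation was 11.2%. The standard error of a log2FC was taken as its size over the root of F, since edgeR reports none. CPM are counts per 1000000, relative to the total of each library and without scaling factors. Exact binomial intervals at 95% and the 3-count floor cover counting error only. The procedure was tested on simulated data. Alternatives were DESeq2 1.42.0 and its size factors, limma-voom (limma 3.58.1), scaling on nuclear genes, no filter, at least 1 CPM in at least 3 libraries, a replicate block, and leaving out each library. Python 3.11.15, numpy 2.4.6, pandas 2.3.3, scipy 1.17.1 and matplotlib 3.10.9 were used.

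Members and gene lists were chosen with earlier results of these data known. Members described in each library were the 10 with the highest mean CPM, the 10 largest called changes and the tested member highest per coding length in each list. Others (such as MATK, CEMA, ACCD, ATPI, ATPF, ATPH, L20, ATCG00430, ATCG00330, ATCG00520, ATCG00720, ATCG00790, ATCG00800 and ATCG01020) were added after their values were seen. Nuclear lists were represented by their 4 members of lowest adjusted p at most. Names came from the study's tables (14 ids, of which 7 from its list of genes higher in cepd) and from RefSeq notes (6 ids). Grouping by tRNA genes could not be applied, since most ids are unnamed here.

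The replicate numbers were read as marking the independent experiments, which the labels do not state. Deviations from genotype means, correlated over genes (log2 of CPM plus 0.5), reached 0.518 (number 1), 0.255 (number 3) and 0.350 (number 4) between libraries of the same number. Each was over 0.1, so the numbers were taken to pair the libraries in the replicate block. Pairs of different number ranged from -0.458 to 0.232, and some were also over 0.1 (Col-0 1 with cepd 2 at 0.212, Col-0 4 with cepd 3 at 0.188). The threshold alone therefore does not set the pairs apart, and the main test used no pairing. Neither the excluded Col-0 library nor the later RNA-seq experiment was used here.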

Additional observations from a re-analysis of the deposited data

How the results depend on the processing

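The 18 members called higher in cepd, all of them also with a log2FC over 1, were again 18 with DESeq2 size factors and with scaling on nuclear genes, 21 with DESeq2, 13 with limma-voom and 23 without a filter. The count was 5 (of 6 tested) when at least 1 CPM in at least 3 libraries was required, which removed most members. These 5 (PSBA, MATK, PSAB, PSAA and RBCL) reached 1 CPM in cepd libraries only, so they entered through the genotype in which they are high. The share of all genes called under this filter was not determined, so 5 of 6 carries no weight. The count was also 5 (of 24 tested) without cepd replicates 1 and 2 together, an alternative added after the data were seen. Leaving out 1 library gave 6 (of 40 tested, without Col-0 replicate 3) to 22 (of 29 tested, without cepd replicate 4). With the replicate number as a block 19 members were called, 15 of them shared with the fit without a block. The block gained 4 calls and lost 3, and cepd replicate 2, without a Col-0 partner, then carries no information on the genotype. For 22 members, 289 comparisons of an alternative with the reported result were made, leaving out fits in which a member was not tested. In 233 the member stayed on the same side of the threshold, called or not, while 40 calls were lost and 16 gained. There were 0 changes of sign. The 22 are not all tested members, and the called ids ATCG00520, ATCG00790 and ATCG00800 are not among them. These ids were called in 13, 3 and 5 of 14 alternative fits. The ratio of summed CPM (3.49) was 3.41 with TMM scaling, 3.50 relative to nuclear counts alone, 3.22 without PSBA, and 2.99 to 4.04 without 1 library.

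Depth limits these data: chloroplast ids gave 452 to 525 counts per Col-0 library, and most members could not be tested. No difference is shown to be absent.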
